A study of Mus musculus with 12 samples.

Results

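Sema7a, Tmem50b, Mfsd2a and Tmem229b encode membrane proteins, and their RNA was among the most reduced when 4EGI-1 was given to mouse leukaemia cells of the T cell acute lymphoblastic type (T-ALL). They are 4 of 19937 genes with a probe set on the array, and 4 of the 13180 genes bright enough to be tested. The genes were picked for their falls in cytoplasmic RNA, and Tmem50b also for its fall in polysomal RNA, so those falls are described here without a test. The polysomal tests of Sema7a, Mfsd2a and Tmem229b are not independent of that choice. Polysomal mRNA is part of cytoplasmic mRNA, and the fitted spread pools both fractions. Each gene was read from its probe set with the highest mean over 12 arrays, which was 10585778 for Sema7a, 10440918 for Tmem50b, 10516064 for Mfsd2a and 10363161 for Tmem229b.

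All samples came from 1 leukaemia clone, number 483, of C57BL6 strain. The treated groups received 100 µM 4EGI-1, a small molecule that keeps the cap-binding protein eIF4E from joining the scaffold protein eIF4G, for 2 h. The comparison cells are labelled untreated, while the protocol names the solvent DMSO, and they are called control here. The 4 groups, of 3 arrays each, were polysomal RNA of 4EGI-1 cells, polysomal RNA of control cells, cytoplasmic RNA of 4EGI-1 cells and cytoplasmic RNA of control cells. Polysomal RNA was pooled from the polysome fractions of each gradient. The sample titles call the cytoplasmic RNA total, so nuclear RNA may be present in it. The authors normalised the values, but joint normalisation of the 12 arrays is not stated. With 1 common scale assumed, every change is relative to the other genes, and a change in total polysomal RNA is not measured. Nothing beyond the words biological replicate says how separate the cultures were, and p-values measure the spread between arrays, which may be technical. Of 11 T cell marker genes, 10 were measured and all 10 passed the brightness filter, while 1 of 3 B cell, 2 of 5 myeloid and 3 of 3 stromal genes measured passed it. Of the 10 T cell markers, 4 fell and 0 rose in polysomal RNA with 4EGI-1 (12.1% and 13% of all genes tested), and 3 fell and 0 rose in cytoplasmic RNA (7.79% and 10.1%) at an adjusted p under 0.05 by limma, and the part of this in the results below was not tested.

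Semaphorin 7A, the product of Sema7a, is held at the cell surface by a glycosylphosphatidylinositol (GPI) lipid anchor and signals to neighbouring cells through an integrin (the products of Itga1 and Itgb1) and plexin C1. Mfsd2a encodes a transporter of the major facilitator superfamily that carries lysophosphatidylcholine with long fatty acids across membranes and is best known at the blood-brain barrier. Tmem50b encodes a small protein with several membrane spans in the endoplasmic reticulum and Golgi, and Tmem229b another membrane-spanning protein of little-known function. Such proteins are made by ribosomes that dock at the endoplasmic reticulum. An mRNA being translated by several ribosomes sediments with polysomes, so polysomal RNA reflects both how much of an mRNA is present and how much of it is engaged.

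The region before a listed start site of each gene is shown to identify the 4 genes at the DNA level. Their falls were fixed by the choice of genes, so the search for motifs is a description. Each run is the 250 bases before a RefSeq start (build GRCm38.p6), 5′ to 3′ on the gene's strand, and all 4 genes were found in the table, Tmem229b with 2 starts. The Sema7a window and both Tmem229b windows lie inside the annotated genes (57939596 to 57962865 and 78961795 to 79007559). Their starts are thus not the outermost annotated ones. The Mfsd2a window overlaps its annotated gene, which ends at 122961194, by a few bases, so its start is not the outermost either. Capitals mark CCAAT boxes (CCAAT), GC boxes (GGGCGG) and TATA boxes (TATAAA) found on either strand, where ATTGG and CCGCCC are the first and the second of these on the opposite strand.
Sema7a, chr9:57939862-57940111, plus strand: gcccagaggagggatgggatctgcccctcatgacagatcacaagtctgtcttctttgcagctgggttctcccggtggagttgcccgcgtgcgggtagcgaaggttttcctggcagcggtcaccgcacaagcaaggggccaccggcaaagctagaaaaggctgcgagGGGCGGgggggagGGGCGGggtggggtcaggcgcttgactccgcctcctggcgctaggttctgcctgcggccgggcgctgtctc
Tmem50b, chr16:91597681-91597930, minus strand: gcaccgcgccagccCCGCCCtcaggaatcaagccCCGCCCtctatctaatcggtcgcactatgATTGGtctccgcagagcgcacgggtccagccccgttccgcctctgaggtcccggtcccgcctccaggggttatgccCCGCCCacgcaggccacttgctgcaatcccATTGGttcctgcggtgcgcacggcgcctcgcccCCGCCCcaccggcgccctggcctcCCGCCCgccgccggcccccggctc
Mfsd2a, chr4:122961189-122961438, minus strand: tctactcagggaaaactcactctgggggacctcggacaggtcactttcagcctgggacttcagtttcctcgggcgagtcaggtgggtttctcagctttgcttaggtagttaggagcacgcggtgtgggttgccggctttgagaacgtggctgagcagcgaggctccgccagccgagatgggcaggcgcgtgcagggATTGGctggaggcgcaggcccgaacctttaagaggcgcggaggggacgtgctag
Tmem229b, first start, chr12:79007278-79007527, minus strand: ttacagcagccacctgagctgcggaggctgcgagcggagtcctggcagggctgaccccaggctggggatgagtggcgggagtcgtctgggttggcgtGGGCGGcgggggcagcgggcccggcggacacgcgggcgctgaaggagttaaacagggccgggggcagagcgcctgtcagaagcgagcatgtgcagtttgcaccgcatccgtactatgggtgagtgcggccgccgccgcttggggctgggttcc
Tmem229b, second start, chr12:78983483-78983732, minus strand: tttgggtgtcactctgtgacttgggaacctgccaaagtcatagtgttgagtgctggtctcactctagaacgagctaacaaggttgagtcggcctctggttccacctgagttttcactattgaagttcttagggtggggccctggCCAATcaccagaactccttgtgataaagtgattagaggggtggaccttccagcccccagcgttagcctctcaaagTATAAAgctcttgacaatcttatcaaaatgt
No motif was common to all 5 windows. The CCAAT box occurred in Tmem50b (2 matches), Mfsd2a (1) and the second Tmem229b window (1), and in 33.8% of 32851 windows of all genes. The GC box occurred in Sema7a (2), Tmem50b (5) and the first Tmem229b window (1), and in 32.7% of all windows. The second Tmem229b window held a TATA box starting 31 bases before the start, a motif in 12.4% of windows. No match was found for TTTGAA (16% of windows), CACGTG (6.02%), TGACGTCA (1.55%) or CCGGAA (12%), on either strand. No match of one motif overlapped a match of another in these windows. The windows of Sema7a, Tmem50b, Mfsd2a and the first start of Tmem229b were 61.6% to 73.2% G or C, above the upper quartile of all windows (61.2%), and the second Tmem229b window was 48%.

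Sema7a RNA dropped to roughly the same low level in both fractions. In polysomal RNA the log2 values on arrays 1 to 3 were 7.52, 7.44 and 7.72 in 4EGI-1 cells, against 8.67, 8.60 and 8.58 in control cells. In cytoplasmic RNA they were 7.40, 7.50 and 7.46 in 4EGI-1 cells, against 8.83, 8.73 and 9.08 in control cells. The treated and control arrays did not overlap in either fraction, and the treated polysomal and treated cytoplasmic arrays overlapped one another. Every control polysomal array lay below every control cytoplasmic array, and the share of all genes with this order was not counted. The polysomal change in log2 value was -1.05 ± 0.10 (SE, with n = 3 arrays in each group), leaving 48.1% of the control level (limma, adjusted p = 2.22e-06). The cytoplasmic change was -1.43 ± 0.10, leaving 37.1%.

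Tmem50b, the brightest of the 4 probe sets, had the larger change in polysomal RNA. Its polysomal values were 9.13, 9.18 and 8.93 in 4EGI-1 cells, against 10.58, 10.79 and 10.69 in control cells. Its cytoplasmic log2 values were 9.50, 9.33 and 9.40 in 4EGI-1 cells, against 10.77, 10.68 and 10.72 in control cells. Control values overlapped between the fractions, whereas every treated polysomal array lay below every treated cytoplasmic array. The share of all genes with that order was not counted. The change was -1.61 ± 0.09 in polysomal RNA, leaving 32.8% of control, and -1.32 ± 0.09 in cytoplasmic RNA, leaving 40.2%. Among the polysomal falls of all genes tested, that of Tmem50b was number 2 by size.

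Mfsd2a fell in polysomal RNA and was the most variable of the 4 in cytoplasmic RNA. Its polysomal log2 values were 7.16, 7.14 and 7.29 in 4EGI-1 cells, against 8.20, 7.92 and 8.14 in control cells. Its cytoplasmic values were 6.92, 6.70 and 7.51 in 4EGI-1 cells, against 8.32, 7.89 and 8.59 in control cells. Treated and control arrays did not overlap in either fraction, while the fractions overlapped within each treatment. The polysomal change was -0.89 ± 0.18, leaving 54.0% of control (limma, adjusted p = 0.00215), and the cytoplasmic change was -1.22 ± 0.18, leaving 43.0%. Both errors come from a spread pooled over the fractions. The SDs of Mfsd2a in 4EGI-1 and control cells were 0.08 and 0.15 in polysomal, and 0.42 and 0.35 in cytoplasmic RNA. The residual spread of Mfsd2a was above that of 98.9% of genes tested, and that of Tmem229b above 96.1%.

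Tmem229b was reduced to a similar degree in both fractions. Its polysomal values were 7.47, 7.17 and 7.35 in 4EGI-1 cells, against 8.21, 8.63 and 8.49 in control cells. Its cytoplasmic log2 values were 7.02, 6.88 and 7.49 in 4EGI-1 cells, against 8.20, 8.26 and 8.56 in control cells. Again no treated array reached a control array, and the fractions overlapped within each treatment. The change was -1.12 ± 0.15 in polysomal RNA, leaving 46.2% of control (limma, adjusted p = 7.31e-05), and -1.21 ± 0.15 in cytoplasmic RNA, leaving 43.2%. A second, dimmer probe set of Tmem229b, 10401160, averaged 6.62 ± 0.13 in polysomal RNA of 4EGI-1 cells and 7.40 ± 0.10 in that of control cells (SD, n = 3). In cytoplasmic RNA it averaged 6.52 ± 0.10 in 4EGI-1 cells and 7.39 ± 0.09 in control cells. Its changes, -0.78 ± 0.09 in polysomal and -0.87 ± 0.09 in cytoplasmic RNA, had the same direction and were smaller.

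**Figure D1:**
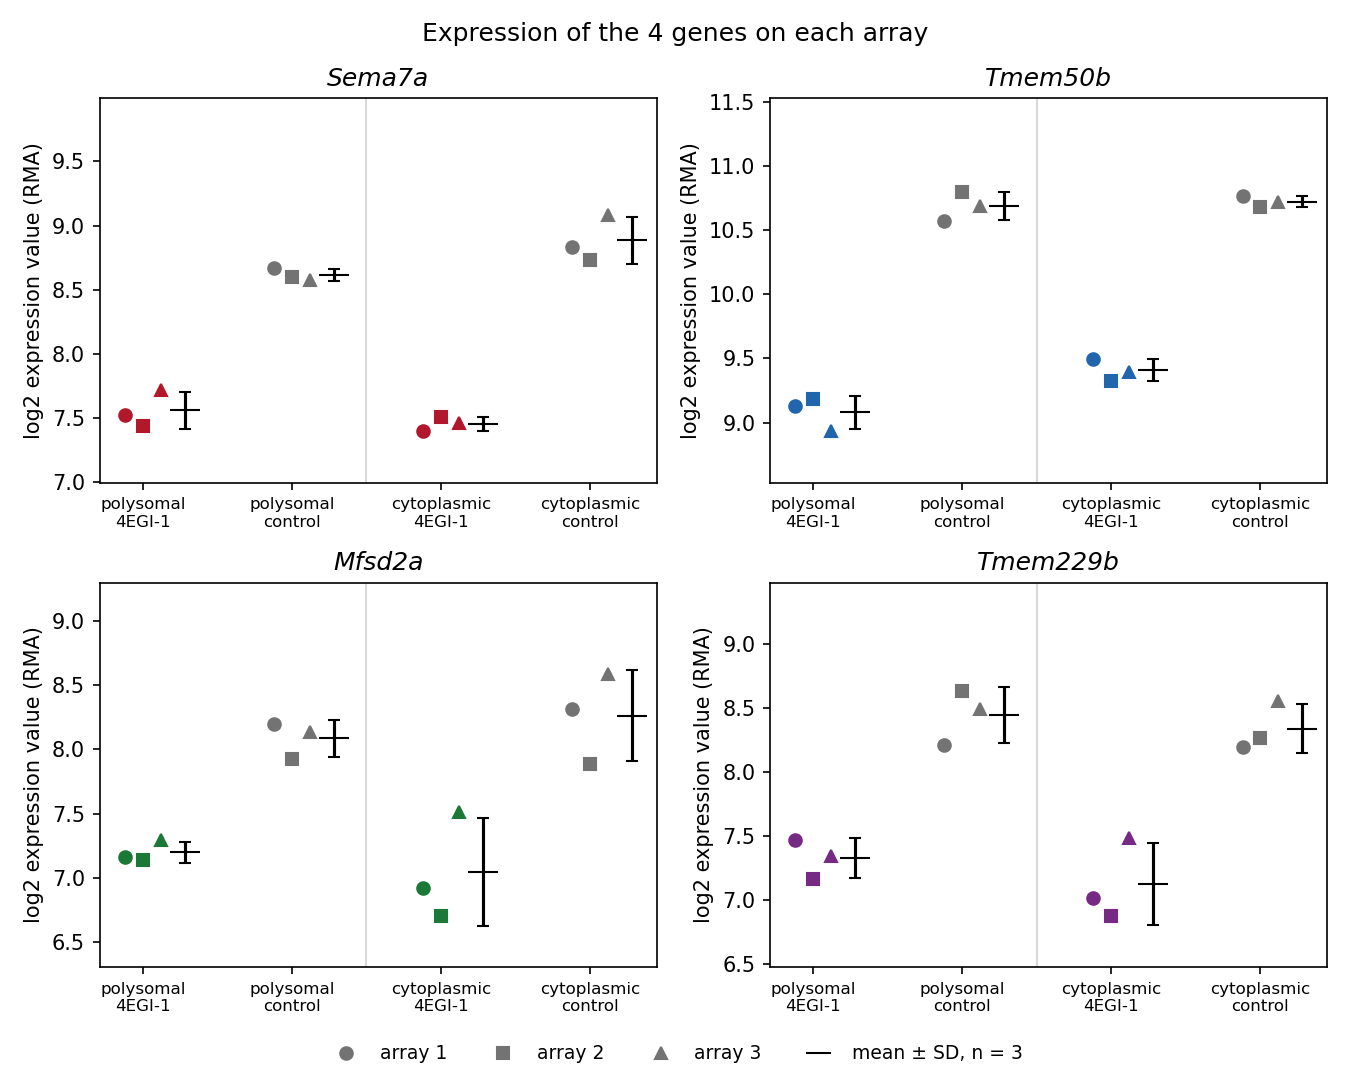
Log2 expression values (RMA) of the 4 genes, 1 panel per gene, by fraction and treatment, with arrays 1 to 3 as symbols and mean ± SD (n = 3) beside them. In each panel all 4EGI-1 arrays lie below all control arrays of the same fraction, and the cytoplasmic points of Mfsd2a spread more widely than its polysomal points.

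Against the whole array, the polysomal test, which is not independent of the choice of genes, passed for Sema7a, Mfsd2a and Tmem229b, which all fell. In that comparison 12.1% of the 13180 genes fell at an adjusted p under 0.05 and 25.2% fell or rose. All 3 treated polysomal arrays lay below all 3 controls in 27.1% of genes, so lack of overlap alone does not mark these genes. A polysomal fall of at least 2-fold was found for Sema7a (2.08-fold), Tmem50b (3.05-fold) and Tmem229b (2.17-fold, brighter probe set) but not for Mfsd2a (1.85-fold), and for 0.182% of all genes. By size, the polysomal falls were number 20 for Sema7a, 45 for Mfsd2a and 14 for Tmem229b among all genes. The cytoplasmic comparison, from which the genes were picked and from which nothing is read, had 7.79% of genes falling (17.8% falling or rising), 12.8% with all treated arrays below all controls and 0.228% with a fall of at least 2-fold, as all 4 had. There the 4 were numbers 2, 4, 8 and 9 by size in the order Sema7a, Tmem50b, Mfsd2a, Tmem229b. The next gene down that order, Ak4, an adenylate kinase, had a change of -1.19 ± 0.11. Falls of at least 2-fold in both fractions were found for 0.106% of genes (14), Sema7a, Tmem50b and Tmem229b among them. The dimmer Tmem229b probe set, at -0.78 in polysomal and -0.87 in cytoplasmic RNA, fell by less than 2-fold in both. The median gene changed by -0.03 in either fraction. In bulk RNA, fewer cells of a type and less RNA per cell cannot be told apart.

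Array 3 was the highest of its group for both Mfsd2a and Tmem229b, in treated and in control cytoplasmic RNA. A component of the deviations shared by genes across the arrays, with 44.8% of the variance within groups, scored -0.17, -0.38 and 0.55 in cytoplasmic 4EGI-1 arrays 1 to 3 and 0.06, -0.53 and 0.48 in cytoplasmic control arrays. Polysomal arrays scored between -0.08 and 0.07. Its part in the cytoplasmic values was not tested. With 1 cytoplasmic array left out at a time, the change lay between -1.45 and -1.05 for Mfsd2a, between -1.39 and -1.09 for Tmem229b and between -1.51 and -1.33 for Sema7a.

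Comparison of the fractions is given as values only, since the cytoplasmic arrays chose the genes. The polysomal minus the cytoplasmic effect was 0.38 ± 0.14 (SE) for Sema7a and 0.33 ± 0.26 for Mfsd2a, a smaller polysomal fall. For Mfsd2a this value was 0.16 without cytoplasmic 4EGI-1 array 2, 0.17 without cytoplasmic control array 3, 0.52 without cytoplasmic control array 2 and 0.56 without cytoplasmic 4EGI-1 array 3. The effect difference was -0.29 ± 0.12 for Tmem50b, a larger polysomal fall, and 0.10 ± 0.21 for Tmem229b, which is less than its error. Polysomal minus cytoplasmic RNA in 4EGI-1 cells was 0.11 ± 0.10 for Sema7a, -0.33 ± 0.09 for Tmem50b, 0.15 ± 0.18 for Mfsd2a and 0.20 ± 0.15 for Tmem229b. The same difference in control cells was -0.27 ± 0.10 for Sema7a, -0.04 ± 0.09 for Tmem50b, -0.18 ± 0.18 for Mfsd2a and 0.11 ± 0.15 for Tmem229b. With 1 array left out, the control value of Mfsd2a lay between -0.37 (without cytoplasmic control array 2) and -0.02 (without cytoplasmic control array 3). These differences between Sema7a and Tmem50b in direction were not tested.

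**Figure D2:**
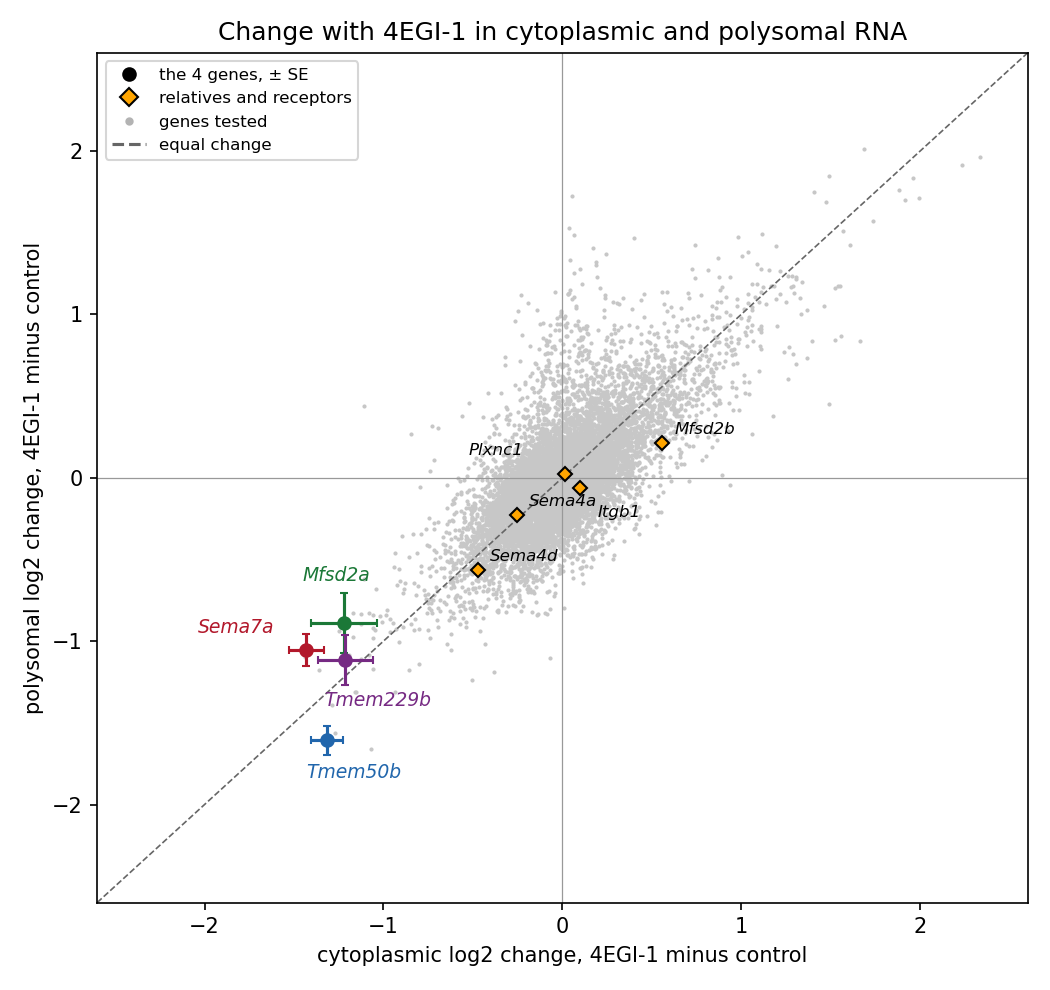
Change with 4EGI-1 (log2, 4EGI-1 minus control) in cytoplasmic RNA (x axis) and polysomal RNA (y axis) for the 13180 genes tested (grey), the 4 genes (± SE) and relatives and receptors of their products (diamonds), with a dashed line of equal change. Sema7a and Mfsd2a lie above that line, Tmem50b below it and Tmem229b within its error of it.

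Relatives of the 4 genes were examined next. Plxnc1 and Itgb1, which encode receptor chains for semaphorin 7A, had changes of 0.02 ± 0.10 and -0.06 ± 0.10 in polysomal RNA and 0.01 ± 0.10 and 0.10 ± 0.10 in cytoplasmic RNA (limma, adjusted p from 0.558 to 0.947), and Itga1 was below the brightness filter. Of 9 genes listed as receptors of semaphorin 7A or their signalling partners, 5 were tested (Itgb1, Plxnc1, Src, Cfl1 and Rac1). By limma 0 of the 5 passed in either fraction. Over all genes tested, 25.2% passed in polysomal and 17.8% in cytoplasmic RNA, so 0 of 5 does not set these genes apart. Sema4d, a transmembrane semaphorin of T cells, fell by 0.56 ± 0.12 in polysomal and by 0.47 ± 0.12 in cytoplasmic RNA (0.00285 and 0.0133, limma adjusted p). The cytoplasmic call of Sema4d ended when the cytoplasmic arrays were fitted alone (adjusted p = 0.0855) or its probe sets were averaged (change -0.17, adjusted p = 0.193), and without cytoplasmic control array 3 or 4EGI-1 array 1 or 2 (up to 0.0671). Sema4a had changes of -0.23 ± 0.09 in polysomal and -0.26 ± 0.09 in cytoplasmic RNA, which did not pass. Sema4a passed in both fractions with array weights (0.0085 and 0.00798) or the replicate block (0.0473 and 0.0338), in polysomal RNA fitted alone (0.0325), and in cytoplasmic RNA without control array 2 (0.0248) or 4EGI-1 array 3 (0.0427).

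Beside Sema7a, 20 semaphorin, plexin and neuropilin genes were tested. In polysomal RNA 5 fell and 1 rose, with a median of -0.10, and in cytoplasmic RNA 4 fell and 0 rose, with a median of -0.12. The same directions had shares of 12.1% falling and 13% rising in polysomal and 7.79% falling and 10.1% rising in cytoplasmic RNA over all genes. The plexin gene Plxna1 fell most of these, by 0.79 ± 0.12 in polysomal (limma, adjusted p = 0.000196) and by 0.75 ± 0.12 in cytoplasmic RNA (0.000572). Plxnd1 fell by 0.56 ± 0.16 and by 0.61 ± 0.16 (adjusted p = 0.0195 and 0.0166). Its polysomal call ended without polysomal control array 2 or 3 or without polysomal 4EGI-1 array 2 or 3 (up to 0.0747), and its cytoplasmic call without control array 1 or 3 or 4EGI-1 array 1 or 2 (up to 0.0782) or with that fraction fitted alone (0.0896). Nrp1, a co-receptor for secreted semaphorins and named after its values were seen, rose by 0.42 ± 0.09 in polysomal RNA (limma, adjusted p = 0.00196). Its cytoplasmic change was -0.03 ± 0.09 (0.867), and with array weights it was -0.20 and passed as a fall (0.0332).

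Among other genes for GPI-anchored proteins, 22 were tested, of which 5 fell and 1 rose in polysomal RNA (median -0.14) and 7 fell and 1 rose in cytoplasmic RNA (median -0.20). Cd52, a small lymphocyte surface protein, fell by 1.31 ± 0.13 in polysomal and by 0.93 ± 0.13 in cytoplasmic RNA (adjusted p by limma = 4.23e-06 and 0.000161). Cd160, a lymphocyte receptor, fell by 0.68 ± 0.12 and by 0.53 ± 0.12 (0.000741 and 0.00742), and the proteoglycan gene Gpc1 fell by 0.31 ± 0.08 and by 0.39 ± 0.08 (0.0098 and 0.0031). The 26 tested genes for assembly of the anchor itself included 4 falling and 4 rising in polysomal RNA (median 0.03), and 0 falling and 6 rising in cytoplasmic RNA (median 0.11). The shares of all genes beside both lists were 12.1% falling and 13% rising in polysomal RNA, and 7.79% and 10.1% in cytoplasmic RNA. Pigc and Pign, enzymes of that pathway, rose by 0.52 ± 0.10 and 0.40 ± 0.10 in polysomal RNA and by 0.61 ± 0.10 and 0.57 ± 0.10 in cytoplasmic RNA (limma, adjusted p from 0.000443 to 0.00939).

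Mfsd2b, the closest relative of Mfsd2a by name and an exporter of sphingosine phosphate, went the other way in cytoplasmic RNA. It rose there by 0.56 ± 0.10 (limma, adjusted p = 0.00118), with group means of 6.98 in 4EGI-1 cells and 6.43 in control cells, and had a change of 0.22 ± 0.10 in polysomal RNA (0.133). The polysomal change of Mfsd2b passed with that fraction fitted alone (0.0326) or with array weights (0.0464). Of 19 other tested genes named Mfsd, 2 fell and 4 rose in polysomal RNA (median 0.01; all genes, 12.1% and 13%), and 1 fell and 4 rose in cytoplasmic RNA (median 0.01; all genes, 7.79% and 10.1%). Mfsd8, which encodes a lysosomal membrane protein, rose by 0.35 ± 0.08 in polysomal and 0.58 ± 0.08 in cytoplasmic RNA (adjusted p by limma = 0.00384 and 0.000113).

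Of 20 other genes that handle lysophospholipids and fatty acids, 8 fell and 0 rose in polysomal RNA (median -0.18), and 4 fell and 1 rose in cytoplasmic RNA (median -0.20). The background over all genes was 12.1% falling and 13% rising in polysomal RNA, against 7.79% and 10.1% in cytoplasmic RNA. Elovl6, an elongase of saturated fatty acids, fell by 0.62 ± 0.09 in polysomal and by 0.40 ± 0.09 in cytoplasmic RNA (adjusted p by limma = 0.000135 and 0.00662). Lpcat1, which makes phosphatidylcholine from the lipid class that MFSD2A carries, fell by 0.45 ± 0.11 and by 0.64 ± 0.11 (0.00605 and 0.000774). The acyltransferase gene Lpgat1 fell by 0.39 ± 0.08 in polysomal RNA (0.00131) and by 0.28 ± 0.08 in cytoplasmic RNA (0.0192), where the call ended without any one of control arrays 1 and 3 and 4EGI-1 arrays 1 and 2 (up to 0.0752) and with that fraction fitted alone (0.108).

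The name TMEM covers unrelated proteins with membrane spans, and 178 such genes beside Tmem50b and Tmem229b were tested. In polysomal RNA 15 fell and 23 rose, which is 8.43% falling against 12.1% of all genes, with a median of -0.03. In cytoplasmic RNA 13 fell and 18 rose (7.79% and 10.1% of all genes), with a median of -0.01. The lowest polysomal change among them was -0.88, against -1.61 for Tmem50b and -1.12 for Tmem229b. Falling in both fractions were 8 of the 178, among 4.72% of all genes, and rising in both were 14, among 6.65%. Tmem184c fell by 0.80 ± 0.08 in polysomal and by 0.44 ± 0.08 in cytoplasmic RNA (adjusted p by limma = 7.05e-06 and 0.00203). Tmem269 rose by 1.03 ± 0.12 and 1.36 ± 0.12 in these fractions (adjusted p by limma = 2.24e-05 and 3.84e-06). The polysomal means of Tmem269 were 7.31 in 4EGI-1 and 6.28 in control cells. Its cytoplasmic means were 7.34 in 4EGI-1 and 5.98 in control cells. That cytoplasmic control mean lay below the floor of the brightness filter, which was applied to the mean over all arrays. The sizes of the Tmem269 rises thus rest on dim control values. Tmem229a was below the brightness filter, at 5.51 ± 0.37 in cytoplasmic 4EGI-1 and 5.73 ± 0.26 in cytoplasmic control arrays (SD, n = 3).

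**Figure D3:**
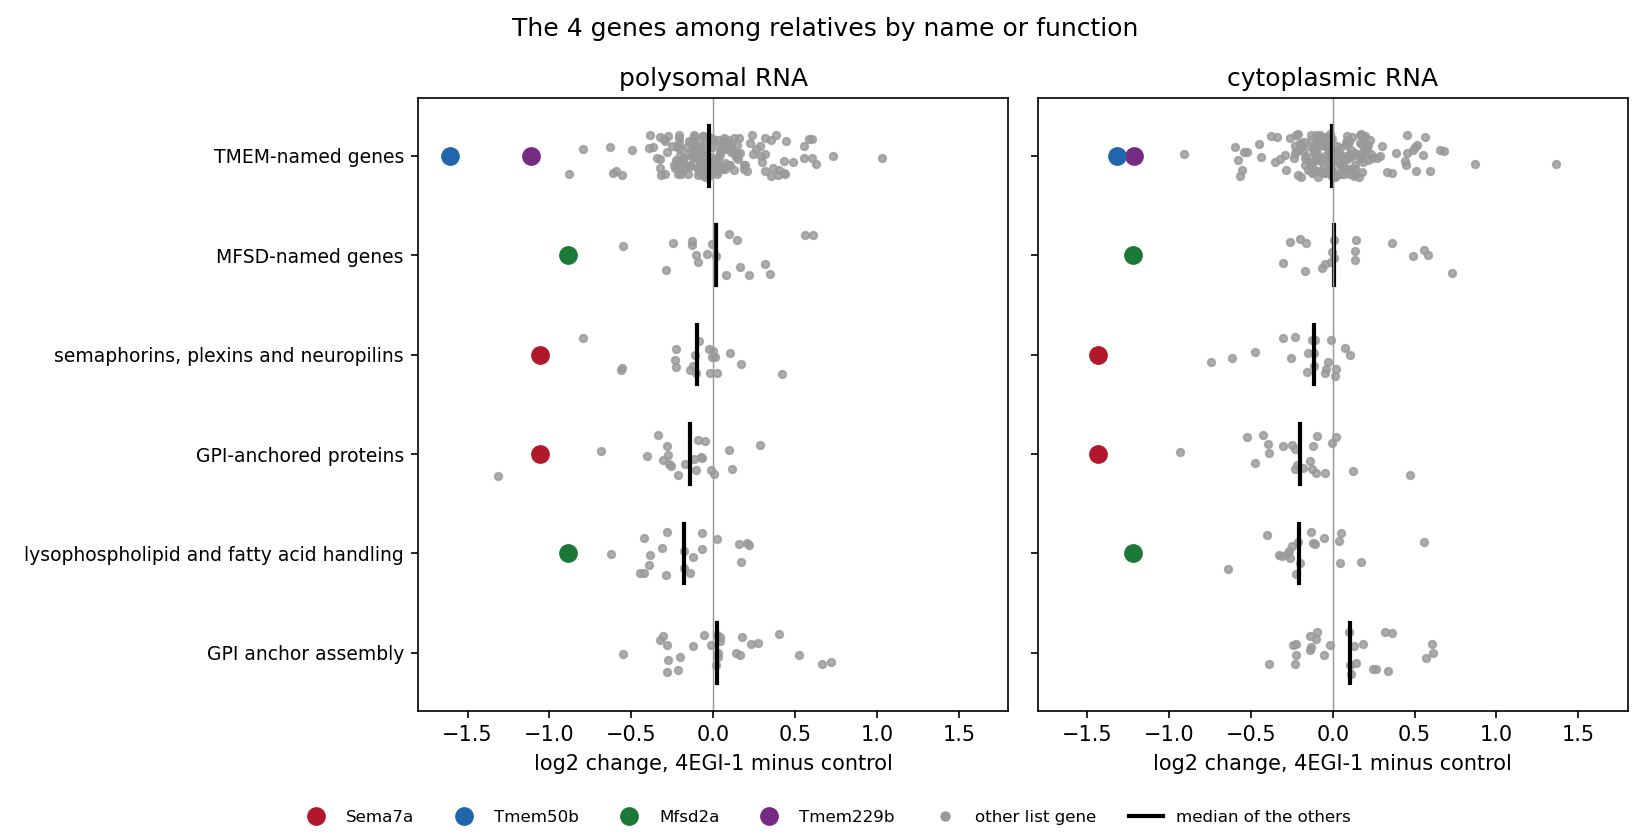
Log2 change with 4EGI-1 (4EGI-1 minus control, x axes) in polysomal RNA (left) and cytoplasmic RNA (right) for tested genes of 6 lists. Coloured points are the 4 genes, grey points the other list genes and black bars the median of those others. The 4 genes lie left of the other genes of their lists in both panels, except Sema7a, which lies right of Cd52 among GPI-anchored proteins in polysomal RNA.

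Genes beside the 4 on the chromosome were counted in the same way. Taking the 2 nearest tested genes on each side in RefSeq order (GRCm38.p6), chosen by position after the members' values were known, gave 16 neighbours. In polysomal RNA 2 of the 16 fell and 1 rose, beside 12.1% and 13% of all genes, and in cytoplasmic RNA 1 fell and 2 rose, beside 7.79% and 10.1%. One of the cytoplasmic rises, that of Mpp5 near Tmem229b (0.49 ± 0.14, limma, adjusted p = 0.0238), was lost with that fraction fitted alone (0.119) and without cytoplasmic control array 3 (0.0805), 4EGI-1 array 1 (0.0741) or 4EGI-1 array 2 (0.0927). The polysomal change of Mpp5 was 0.32 ± 0.14 (0.114), and it passed with that fraction fitted alone (0.00187), with array weights (0.00316) and without cytoplasmic control array 2 (0.0407) or 3 (0.0172). Ifngr2, which encodes a chain of the interferon gamma receptor and lies next to Tmem50b, fell by 0.59 ± 0.10 in polysomal and by 0.55 ± 0.10 in cytoplasmic RNA (adjusted p by limma = 0.00045 and 0.00139). On the other side of Tmem50b, Dnajc28 had changes of 0.04 ± 0.10 and -0.08 ± 0.10, which did not pass. Trit1, a tRNA-modifying enzyme gene near Mfsd2a, rose by 1.07 ± 0.09 and 1.10 ± 0.09 (1.35e-06 and 2.14e-06). Stra6, near Sema7a, fell by 0.34 ± 0.08 in polysomal RNA (0.0039), with a change of -0.13 ± 0.08 in cytoplasmic RNA.

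**Figure D4:**
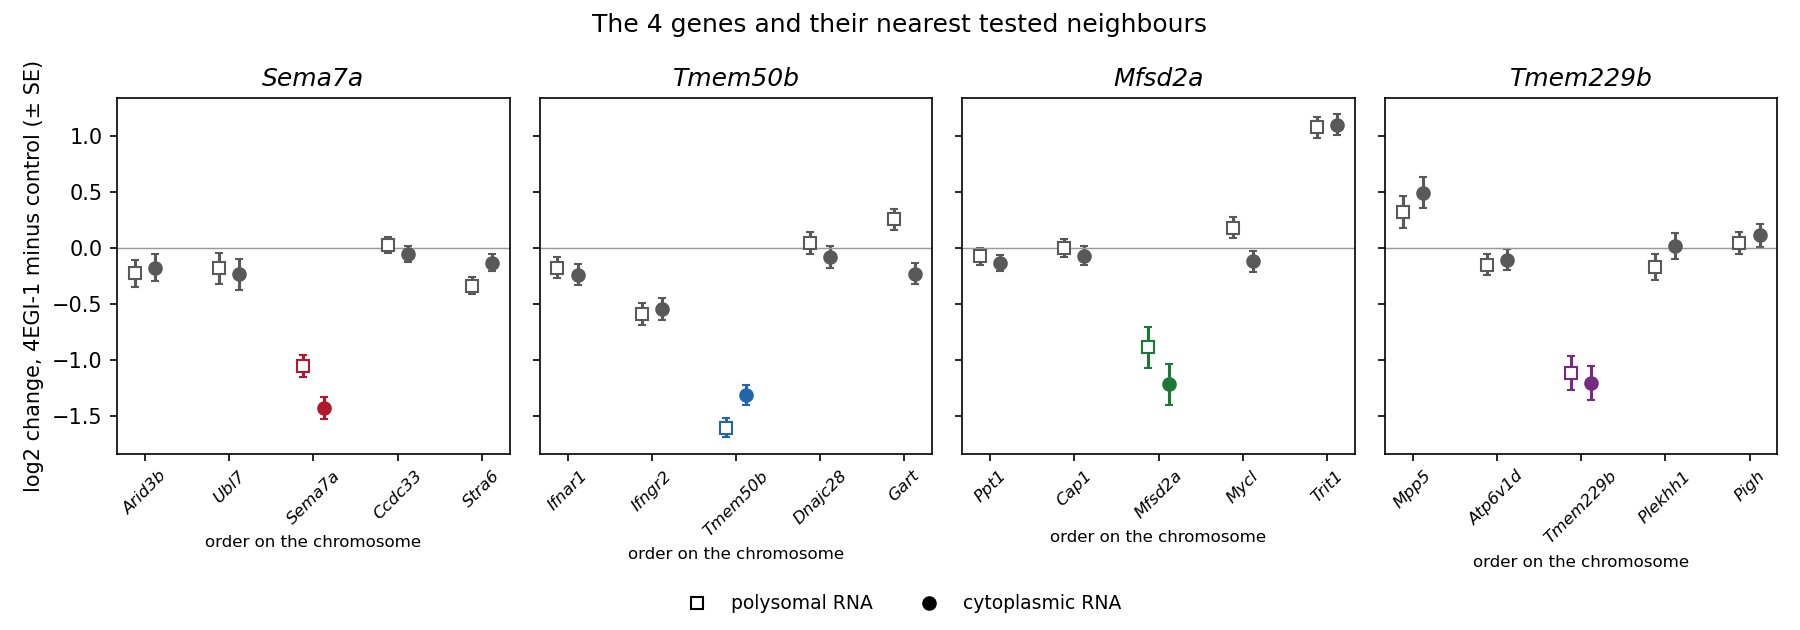
Log2 change with 4EGI-1 (± SE, 4EGI-1 minus control) of each of the 4 genes (coloured) and the 2 nearest tested genes on each side (grey), in chromosome order, in polysomal RNA (open squares) and cytoplasmic RNA (filled circles). The gene in the middle of each panel is the lowest, and Trit1 near Mfsd2a lies highest of all.

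The genes whose profile over the 12 arrays was most like that of each member were found by Pearson's r of log2 values, as a description. The arrays share treatment and fraction, so r mostly reflects the 4 group means. Sema7a was most like Tuba4a (r = 0.99), Acadm (0.98) and Plpp3 (0.98), which encode a tubulin, a fatty acid dehydrogenase of mitochondria and a membrane lipid phosphatase. Of these Plpp3 had changes of -0.84 ± 0.10 in polysomal and -1.02 ± 0.10 in cytoplasmic RNA. Tmem50b was most like Trp53inp1 (0.98), Egln3 (0.98) and Ing1 (0.97), which encode a stress-induced p53 partner, an oxygen-sensing hydroxylase and a chromatin reader. Each of these had a larger fitted polysomal than cytoplasmic change, such as -0.72 ± 0.08 and -0.59 ± 0.08 for Trp53inp1. The choice by r favours such a pattern, and for each of these genes the ± ranges of both changes overlapped. Mfsd2a was most like Arsi (0.99), a sulfatase gene, Plk1 (0.99), a mitotic kinase gene, and Akna (0.99), and Plk1 had changes of -0.83 ± 0.13 in polysomal and -1.17 ± 0.13 in cytoplasmic RNA. Tmem229b was most like Nrarp (0.98), a feedback target of Notch signalling, Tmem41a (0.98) and Efhd2 (0.97). Nrarp had changes of -0.83 ± 0.11 in polysomal and -0.76 ± 0.11 in cytoplasmic RNA. The lists of the 4 genes shared no gene.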

How the data were processed

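RNA of 12 samples was measured on single-colour arrays. The deposited table holds log2 values of 34760 probe sets, made by the authors with RMA per the submitters' processing notes. The RMA version and joint normalisation of the arrays are not stated there. Array medians lay between 6.40 and 6.56. Probe sets with 1 gene symbol (21640) were named through the platform annotation, which can be old, and updated by Entrez number with RefSeq (GRCm38.p6). Another 1321 had several symbols and 11799 none. Each gene kept its brightest probe set, and dim genes were removed, with a floor at the 40th percentile of the probe-set means (6.00).

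For 13180 genes, the 4 group means were fitted together (lmFit and eBayes of limma 3.58.1, R 4.3.3), with Benjamini-Hochberg adjustment over all genes and a threshold of 0.05. Errors are standard errors of that fit unless named SD. The fit was tested on simulated data. The members, lists and rule for named genes were chosen with earlier results of these data known. Named were the members, 3 most similar genes each, the largest falls where needed, fixed relatives, and from each list up to 3 genes that passed in both fractions in 1 direction. Not every gene so chosen is described. Alternatives were other normalizations, filters, spreads, weights, a replicate block and leaving out arrays. The number of arrays limits the precision.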

Additional observations from a re-analysis of the deposited data

How the results depend on the processing

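The polysomal tests are not independent of the choice of genes, and the alternatives reuse the same arrays, so they add no independent support. Under all 21 alternatives the polysomal changes of Sema7a, Mfsd2a and Tmem229b kept their direction and passed, with adjusted p (limma) up to 4.06e-05, 0.0134 and 0.000816. Their values ranged from -1.13 to -0.995, from -0.97 to -0.83 and from -1.23 to -0.95. The polysomal change of Tmem50b ranged from -1.66 to -1.53. Cytoplasmic changes of all 4 genes, the differences of effects and the fraction differences in control cells moved by less than the spread between arrays. The difference of effects ranged from 0.16 to 0.56 for Mfsd2a and from -0.03 to 0.28 for Tmem229b, and the control fraction difference from -0.35 to -0.17 for Sema7a, from -0.37 to -0.02 for Mfsd2a, from 0.01 to 0.22 for Tmem229b and from -0.09 to 0.04 for Tmem50b. Fraction differences in 4EGI-1 cells were not recomputed.

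The number of genes that fell depended on the spread used. It was 2685 in polysomal and 369 in cytoplasmic RNA with each fraction fitted alone, and 2750 and 2667 with array weights, against 1599 and 1027. With 1 array left out it lay between 1143 and 1881 in polysomal and between 588 and 1622 in cytoplasmic RNA. The lower cytoplasmic counts came without control array 3 (668), 4EGI-1 array 1 (633) or 4EGI-1 array 2 (588) and the higher without control array 2 (1583) or 4EGI-1 array 3 (1622).

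Of 1870 values of 45 other genes, 44 lost and 15 gained a call, and 0 reversed.

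Whether replicate numbers mark pairs is not settled by these values. Same-numbered 4EGI-1 and control arrays had correlations of deviations of -0.22, 0.56 and 0.52 in cytoplasmic and 0.08, 0.16 and -0.06 in polysomal RNA. In these fractions 4 of 6 and 3 of 6 arrays matched best with their own number. Each array had only the 3 arrays of the other treatment to match, so some such matches arise by chance. By these correlations, the cytoplasmic 4EGI-1 and control arrays numbered 2 deviated alike, as did those numbered 3, while those numbered 1 did not. The main fit used no pairing. With the replicate block the polysomal changes stayed at -1.05, -0.89 and -1.12 for Sema7a, Mfsd2a and Tmem229b (adjusted p = 1.88e-06, 0.000103 and 2.75e-05), and 1812 and 1312 genes fell in polysomal and cytoplasmic RNA.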
